A study of Mus musculus with 24 samples.

Results

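Heme synthesis enzymes were followed in RNA of extracellular vesicles from mouse plasma. The set was chosen by gene symbol and holds 8 genes, Alas1, Alas2, Alad, Uros, Urod, Cpox, Ppox and Fech. All 8 were found among the 21960 genes of the table, and 4 of them (Alas1, Alas2, Urod and Fech) passed the filter on low counts that left 4112 genes for testing. The series sequenced 24 libraries, 1 per animal, from male mice of the inbred strain C57BL/6J. Mice had their bile duct tied, which blocks bile flow and leads to cholestasis and fibrosis of the liver, or had a sham operation, and were killed at day 8 or day 15 after surgery. The 4 groups were sham day 8, ligated day 8, sham day 15 and ligated day 15, with 6 animals in each. Vesicles were precipitated from plasma with ExoQuick, a polymer reagent that also brings down other particles and free RNA. The labels name liver as the tissue and vesicles as the site, and the protocol describes plasma vesicles only, and the counts are treated here as those of plasma vesicles.

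Heme is built from glycine and succinyl-CoA in a chain of enzymes that starts and ends in the mitochondrion. The first step is made by 5-aminolevulinate synthase, which has a housekeeping form encoded by Alas1, prominent in liver and repressed by heme, and an erythroid form encoded by Alas2, switched on by GATA1 in red cell precursors and controlled at translation by iron. Alad, Uros and Urod act in the cytosol, Cpox and Ppox in the mitochondrion, and Fech, ferrochelatase, inserts iron into protoporphyrin.

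Libraries held 101733 to 937963 counts. At day 8, animals 1 to 3 of both groups had shallow libraries (101733 to 349386) and animals 4 to 6 deep ones (535737 to 937963). The gene model of Lars2 alone held 31.6% to 52.7% of the counts. It was lowest in ligated day 8 animal 3, which stood farthest from the others of its group. Levels are given as CPM, the counts of a gene per 1000000 counts of its library, after scaling by TMM, a method that centres libraries on their common genes. This scaling moved the median ligation effect over all tested genes by 0.27 (log2) at day 8 and 0.20 at day 15, so the balance of higher and lower genes depended on it. In all, 114 genes were called higher and 15 lower at day 8 (56 and 77 on library totals without TMM), and 143 and 44 at day 15 (115 and 172 without TMM).

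The regulatory letters of Alas2 are shown because the gene is the erythroid form and holds a GATA box that the windows of Alas1 lack. Alas2 (ENSMUSG00000025270) lies on the plus strand of chromosome X, 150547375 to 150570638 in GRCm38, and Alas1 (ENSMUSG00000032786) on the minus strand of chromosome 9, 106233455 to 106248654. The stretch of 208 bases just before the annotated start of Alas2 is RefSeq sequence on the plus strand of GRCm38.p6, chrX:150547167-150547374, with the reverse of a GATA box in capitals.
Alas2 promoter: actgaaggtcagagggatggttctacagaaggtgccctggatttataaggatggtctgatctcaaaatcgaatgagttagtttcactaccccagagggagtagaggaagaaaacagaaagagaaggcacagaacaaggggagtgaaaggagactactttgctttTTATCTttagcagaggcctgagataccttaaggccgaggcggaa
A match was the word AGATAA, the variant AGATAG, the variant TGATAA or the variant TGATAG, on both strands, in the 250 bases before each RefSeq start. Of 32851 such windows 26.5% held a match. Windows were given for 7 of the 8 enzymes, and 3 enzymes had a match, Alas2, Cpox and Uros (Uros in 1 of its windows). Neither window of Alas1 held one. The word CACCC, the core of sites bound by Krüppel-like factors, was found in 52.0% of windows and in those of 4 enzymes, Alas1 (both windows), Alas2, Alad (1 of its windows) and Cpox. Alas2 had 3 copies next to each other, 40 to 26 bases before its RefSeq start and so inside the first exon as GENCODE draws it. A match describes these letters only and was not tied to binding or to the counts.

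The iron-responsive element of Alas2, a hairpin in the 5′ untranslated region through which iron regulatory proteins block translation, is shown with its loop in capitals. It spans the end of exon 1 (GRCm38 chromosome X, 150547459 to 150547485) and the first 3 bases of exon 2 (150552149 to 150552151).
Alas2 iron-responsive element: tggttcgtcctCAGTGCagggcaacaggac
A search for such a hairpin (a C bulge, 5 paired bases and a loop starting with CAGTG) in annotated 5′ untranslated regions found it in 23 of 20916 protein-coding genes, or 0.110%. Alas2 was the 1 match among the enzymes.

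The erythroid form was by far the more abundant first enzyme in plasma vesicles. Over all 24 libraries Alas2 had 636 ± 323 CPM per kilobase of its longest coding transcript (SD), against 6.20 ± 3.81 for Alas1. Counts of Alas2 exceeded those of Alas1 in each library, with a ratio of 12.0 at the lowest, 76.2 at the median and 156 at the highest. Fech came second on the scale per kilobase with 51.2 ± 25.7, followed by Urod (23.9 ± 11.4), Alad (14.6 ± 10.2), Alas1, Cpox (6.09 ± 4.51), Ppox (4.79 ± 3.03) and Uros (3.49 ± 5.15). From Urod downwards each gene differed from the next on this scale by less than the larger SD of the pair. The levels and their order depend on the transcript assumed. The longest form of Fech carries a long end region, and Fech had 144 ± 72.1 on the median length of its coding transcripts. On that length Alas2 had 660 ± 335, Urod 36.5 ± 17.5 and Alas1 11.5 ± 7.04. Uros (7.90 ± 11.7) then came above Cpox (6.09 ± 4.51) and Ppox (5.84 ± 3.69).

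**Figure D1:**
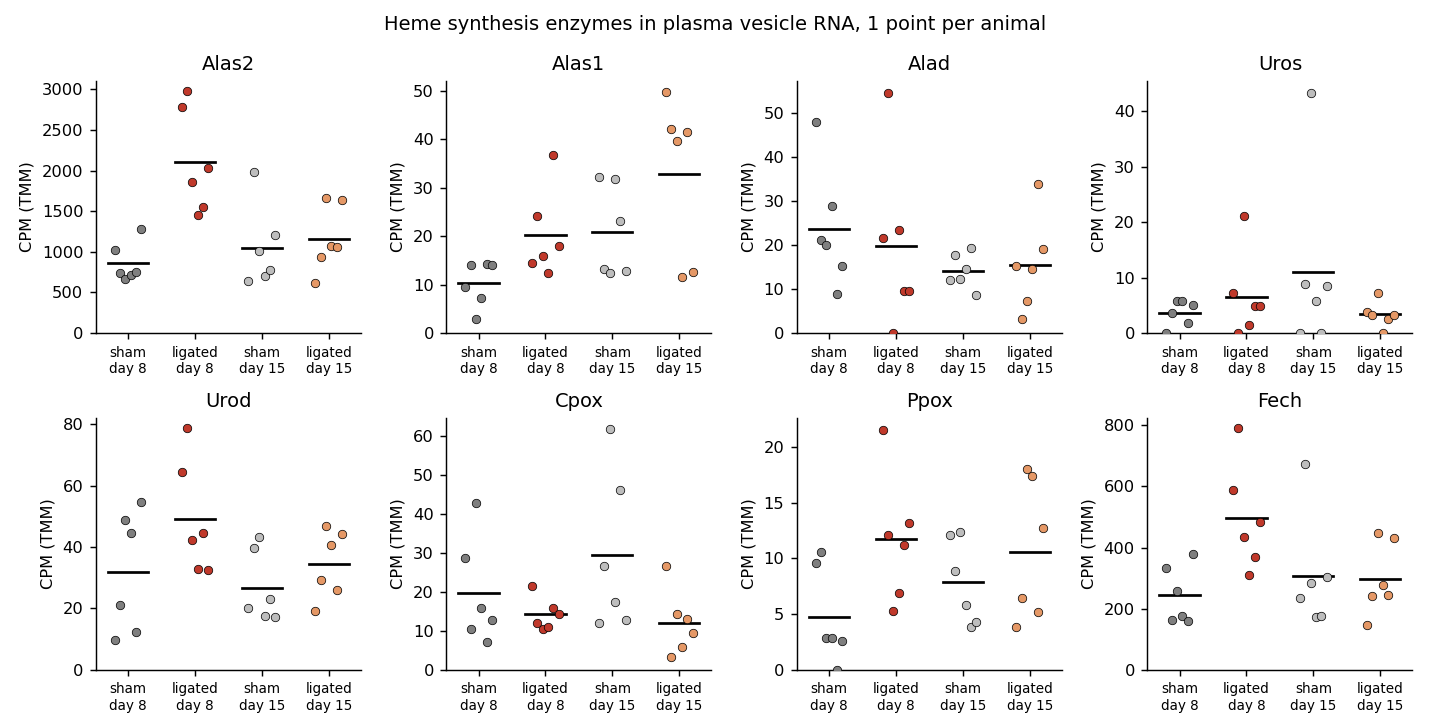
CPM after TMM scaling (y axis, a scale of its own for each gene) of the 8 enzymes, 1 point per animal in the 4 groups, with a bar at each group mean. The 6 ligated day 8 animals lie above the 6 sham day 8 animals for Alas2 (1455 to 2983 against 667 to 1280 CPM), while the groups overlap for the other 7 enzymes.

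Alas2 was higher after ligation at day 8 and not detectably so at day 15. At day 8 its level ran from 667 to 1280 CPM in sham animals (median 748) and from 1455 to 2983 in ligated animals (median 1946). All 6 ligated animals were above all 6 sham animals. How many of all tested genes separated in this way at either day is not reported here. The log2 fold change was 1.29 (SE 0.27, adjusted p = 0.00836, edgeR quasi-likelihood test), the 26th smallest p of 4112 genes. Of the 4 tested enzymes Alas2 alone passed, where 2.77% of all tested genes were called higher. At day 15 sham animals ran from 644 to 1982 CPM (median 888) and ligated animals from 615 to 1659 (median 1059). These ranges lay almost on top of each other, and the log2 fold change was 0.14 (SE 0.27, adjusted p = 0.828). In bulk vesicle RNA, fewer cells or vesicles of a type and less RNA in each cannot be told apart.

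Alas2 lay on the higher side at day 8 in shallow and in deep libraries. Among animals numbered 1 to 3 the ligated mean was 2541 CPM (1864 to 2983) and the sham mean 810 (667 to 1023). Among those numbered 4 to 6 the ligated mean was 1676 CPM (1455 to 2027) and the sham mean 917 (715 to 1280). That ligated animals lay above sham animals in both sets follows from the separation over all 12 libraries and adds nothing to it. The fold change passed the test in the shallow libraries (1.62, SE 0.36, adjusted p = 0.0278), where 1.09% of genes were called higher, and missed it in the deep ones (0.83, SE 0.36, adjusted p = 0.458), where 0.0995% were; the difference between the sets was not tested. Leaving out any 1 of the 12 libraries kept the call, with values of 1.16 to 1.43. As a plain share of the library total, without TMM, Alas2 had 667 to 1220 CPM in sham and 1161 to 2400 in ligated animals, ranges that meet at their edges, and the fold change was 0.98 (SE 0.25, adjusted p = 0.0268), where 1.36% of genes were called higher.

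The ligation effects on Alas2 at the 2 days differed by -1.14 on the log2 scale (SE 0.38, day 15 minus day 8), with an unadjusted p of 0.00518 and an adjusted p of 0.710. The difference between days thus failed the correction, as it did for every tested gene (0 of 4112 or 0% called by edgeR, 234 at an unadjusted p under 0.05, and 1 called by DESeq2). Between ligated groups Alas2 was lower at day 15 than at day 8 by a log2 value of -0.86 (SE 0.27, adjusted p = 0.0655), which missed the threshold that 2.09% of genes passed on the lower side. It passed without the low-count filter (-0.89, adjusted p = 0.00145), where 1.47% of genes did, and without ligated day 8 animal 3 (-0.88, adjusted p = 0.0427), ligated day 15 animal 3 (-0.98, adjusted p = 0.0443) or ligated day 15 animal 6 (-0.98, adjusted p = 0.0475). Between sham groups the value was 0.29 (SE 0.27, adjusted p = 0.713). Platelet markers also lay lower at day 15. In ligated animals 8 of 14 were called (7 by DESeq2, median -1.90), and 1 to 12 leaving out 1 library, with 2 and 1 without ligated day 8 animals 4 and 5 and 4 and 2 without ligated day 15 animals 1 and 5. In sham animals 0 of 14 were called by edgeR and DESeq2 (median -1.39, 14 at an unadjusted p under 0.05). Without the low-count filter 14 were, where 0.599% of all genes were called lower. The summed share of platelet markers ran from 0.109% to 1.10% of counts in ligated day 8 and from 0.128% to 0.222% in ligated day 15 animals. No marker was at 0 in a whole group. The share differed between the shallow and the deep libraries of day 8. In ligated animals it was 0.109% to 0.306% in the shallow and 0.532% to 1.10% in the deep ones. In sham animals it was 0.145% to 0.328% and 0.525% to 0.954%, beside 0.114% to 0.286% at day 15. The part of platelet markers in the value of Alas2 was not tested. Averaged over both days the ligation effect on Alas2 was 0.71 (SE 0.19, adjusted p = 0.0136), where 7.1% of tested genes were called higher, and the call was lost on library totals without TMM (0.47, adjusted p = 0.0512), where 4.5% were. The splits over all genes were 292 higher and 144 lower with TMM and 185 and 621 without.

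Alas1, the housekeeping form, was near the limit of detection. It had 30 counts over the 6 sham and 56 over the 6 ligated libraries of day 8, and 33 and 61 at day 15. Sham day 8 animals had 2.86 to 14.2 CPM (median 11.8) and ligated day 8 animals 12.3 to 36.7 (median 16.9), and 5 of 6 ligated animals were above all sham animals. The log2 fold change was 0.95 (SE 0.43, unadjusted p = 0.0350, adjusted p = 0.296). At day 15 sham animals had 12.4 to 32.2 CPM (median 18.2) and ligated animals 11.6 to 49.7 (median 40.6). Ligated animals there fell in a low pair (11.6 and 12.7 CPM) and 4 others between 39.7 and 49.7. The log2 fold change was 0.57 (SE 0.41, adjusted p = 0.505), and 0.76 (SE 0.29, adjusted p = 0.101) averaged over days. A change of Alas1 was not detectable at this depth.

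The ratio of Alas2 to Alas1 within a library does not depend on scaling, and it was not shown to change with ligation. At day 8 its median was 79.6 in sham (46.8 to 156) and 109 in ligated animals (41.2 to 155), with nearly the same range. The difference of the mean log2 ratios was 0.34 (SE 0.37, two-sided exact permutation p = 0.359, adjusted p = 0.539 over 6 ratio tests). It was 0.57 in the shallow and 0.12 in the deep libraries, and 0.20 to 0.59 leaving out 1 library (unadjusted exact permutation p of 0.0866 to 0.610), with 0.21 without ligated animal 1, 0.59 without ligated animal 5, and 0.20, 0.55 and 0.22 without sham animals 2, 3 and 5. At day 15 the medians were 48.1 in sham (18.9 to 128) and 32.3 in ligated animals (12.0 to 115). The difference was -0.30 (SE 0.68, exact permutation p = 0.665, adjusted p = 0.777), and it turned to 0.0197 without ligated day 15 animal 1. The fold changes of the 2 first enzymes at day 8, 1.29 and 0.95, therefore cannot be ranked from these libraries.

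**Figure D2:**
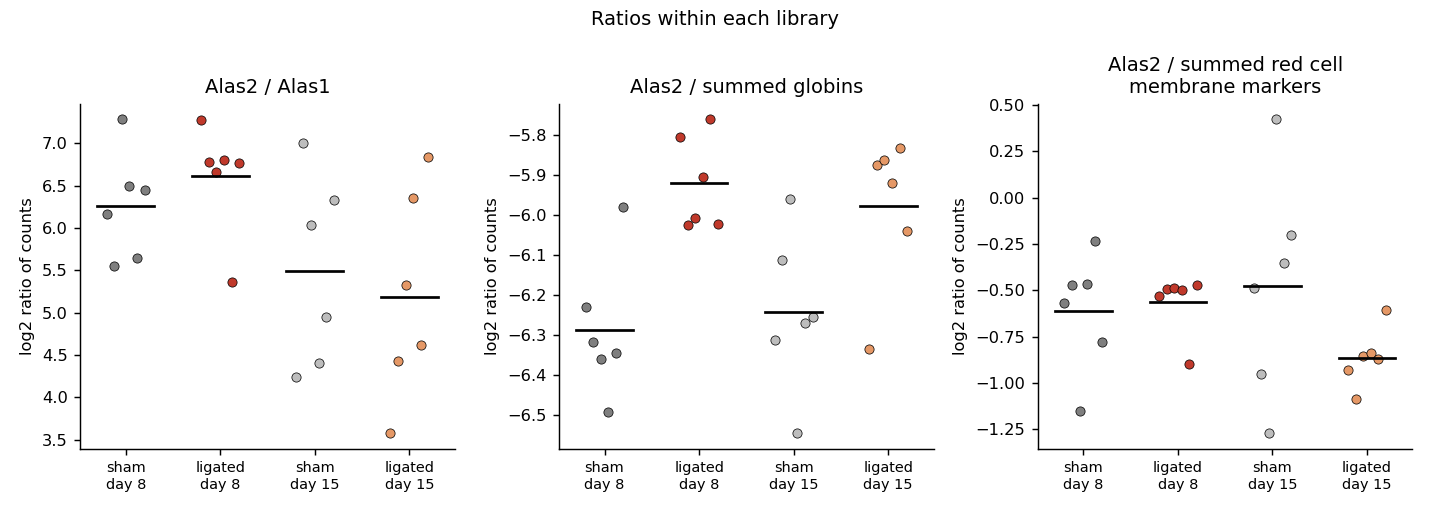
Log2 ratio of Alas2 counts to Alas1, to the summed globin genes and to the summed red cell membrane markers (y axes, 0.5 counts added to each term), 1 point per animal, with a bar at each group mean. In each panel ligated and sham animals overlap at both days. Against globins the ligated means lie 0.37 (day 8) and 0.26 (day 15) above the sham means.

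Among the enzymes between the first and the last, Urod, uroporphyrinogen decarboxylase, was the only one with enough counts for the test. It had 9.56 to 54.7 CPM in sham (median 32.9) and 32.3 to 78.7 in ligated animals (median 43.5) at day 8. The 3 lowest values were sham animals and the 2 highest were ligated. The log2 fold change was 0.35 (SE 0.33, adjusted p = 0.685), and it was 0.95 (adjusted p = 0.493) in the shallow and -0.10 (adjusted p = 0.962) in the deep libraries. Leaving out 1 library gave 0.16 to 0.59, the lowest without sham day 8 animal 5 and the highest without sham day 8 animal 6, and library totals without TMM gave 0.089, all short of the threshold. At day 15 it was 0.42 (SE 0.39, adjusted p = 0.630), with 17.1 to 43.2 CPM in sham and 19.1 to 46.9 in ligated animals.

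Alad, Uros, Cpox and Ppox fell below the filter, and their summed counts are given as a description with exact 95% intervals for counting error only. Alad, porphobilinogen synthase, had 55 counts in sham and 43 in ligated libraries at day 8, a ratio of ligated to sham of 0.81 after scaling (0.53 to 1.23), and 21 and 31 at day 15 (1.15, 0.64 to 2.11). Uros, uroporphyrinogen III synthase, had 12 and 13 counts at day 8 (1.12, 0.47 to 2.69) and 13 and 6 at day 15 (0.36, 0.11 to 1.01). Cpox, coproporphyrinogen oxidase, had 46 and 37 counts at day 8 (0.83, 0.53 to 1.31) and 40 and 22 at day 15 (0.43, 0.24 to 0.74). Ppox, protoporphyrinogen oxidase, had 9 and 29 counts at day 8 (3.34, 1.54 to 8.01) and 11 and 20 at day 15 (1.42, 0.65 to 3.27). The intervals for Ppox at day 8 and Cpox at day 15 leave out a ratio of 1, but animals of both groups overlapped. Ppox ran from 0 to 10.6 CPM in sham and from 5.28 to 21.5 in ligated day 8 animals, and Cpox from 12.1 to 61.8 in sham and from 3.24 to 26.7 in ligated day 15 animals. In a fit without the filter neither passed (Ppox 1.57, SE 0.67, adjusted p = 0.382; Cpox -1.25, SE 0.48, adjusted p = 0.133; edgeR).

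Fech, the last enzyme, lay on the same side as Alas2 at day 8 without passing the test. The gene (ENSMUSG00000024588) is on the minus strand of chromosome 18, 64452914 to 64490251 in GRCm38. Sham day 8 animals had 160 to 379 CPM (median 216) and ligated day 8 animals 311 to 793 (median 459). Of the ligated animals 4 were above all sham animals, and 4 sham animals were below all ligated ones. The log2 fold change was 1.02 (SE 0.32, adjusted p = 0.0828). It passed when animals were paired by number (1.01, SE 0.26, adjusted p = 0.0225, with 4.11% of genes called higher), without the low-count filter (0.97, SE 0.23, adjusted p = 0.00392, with 1.41% called higher) and without sham day 8 animal 6, the highest of its group (1.21, SE 0.34, adjusted p = 0.0423). At day 15 both groups had nearly the same level, 174 to 673 CPM in sham (median 259) and 145 to 447 in ligated animals (median 261), the log2 fold change being -0.038 (SE 0.32, adjusted p = 0.973). Without sham day 15 animal 2, which had the highest level of that group, it was 0.35 (adjusted p = 0.553), and the effect averaged over days went from 0.49 (SE 0.23, adjusted p = 0.176) to 0.69 (SE 0.20, adjusted p = 0.0230).

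**Figure D3:**
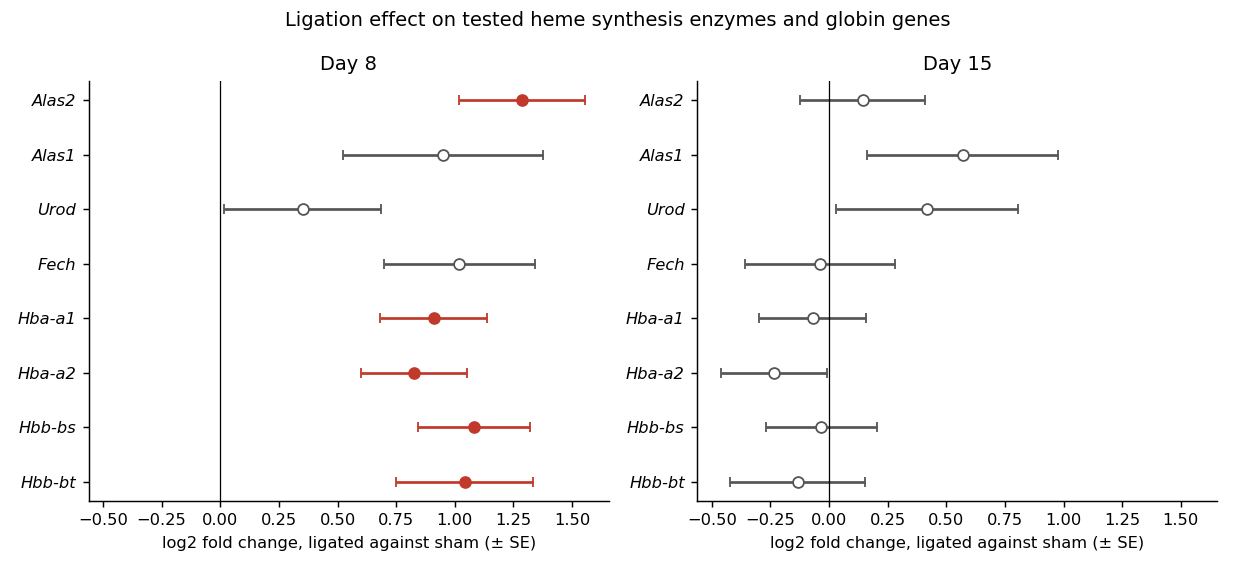
Log2 fold change of ligated against sham animals (x axis, bars ± SE) at day 8 and day 15 for the 4 tested enzymes and the 4 tested globin genes. Filled red points pass an adjusted p of 0.05, namely Alas2 and the 4 globin genes at day 8, and no gene drawn passes at day 15.

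The 4 tested enzymes had a median log2 fold change of 0.98 at day 8 and 0.28 at day 15. Medians over all tested genes were 0.0236 and -0.0178. On library totals without TMM the medians of the 4 tested enzymes were 0.71 and 0.0992, and 2 instead of 3 of these 4 were positive at day 15. These medians describe genes that passed a filter on counts and are not a test of the set. Alas1 had more counts in ligated than in sham libraries (56 against 30 at day 8, 61 against 33 at day 15). The enzymes below the filter had ratios of ligated to sham on both sides of 1. These ran from 0.81 (Alad) to 3.34 (Ppox) at day 8 and from 0.36 (Uros) to 1.42 (Ppox) at day 15. All 8 enzymes together took 0.122% ± 0.029 of the counts in sham and 0.226% ± 0.067 in ligated animals at day 8 (SD, n = 6 each), and 0.143% ± 0.055 and 0.134% ± 0.045 at day 15. Alas2 supplied most of these counts, so the sums follow that gene.

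Alas2 went with other red cell transcripts from library to library. After group means were taken out, the 5 genes most like Alas2 over 24 libraries (Pearson r of log2 CPM) were Hbb-bt, a beta globin (0.956), Fam46c, a poly(A) polymerase gene (0.944), Hbb-bs, the other adult beta globin (0.938), Bpgm, which makes the 2,3-bisphosphoglycerate of red cells (0.938), and Fech (0.928). Within single groups of 6 the r of Alas2 with Fech ran from 0.794 in sham day 8 animals to 0.994 in ligated day 15 animals. Urod (0.474) was less alike and had few counts. Alas1 stood at -0.326, rank 3759 of the tested genes. The genes most like Alas1 were Itpr1 (0.649), Mvp (0.646), Wdr6 (0.645), Sec24b (0.640) and Pde7b (0.602), none of which is on the lists of heme or red cell genes used here. These values describe libraries that share depth and scaling, and with a few counts per library an r of Alas1 is weak evidence of likeness.

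**Figure D4:**
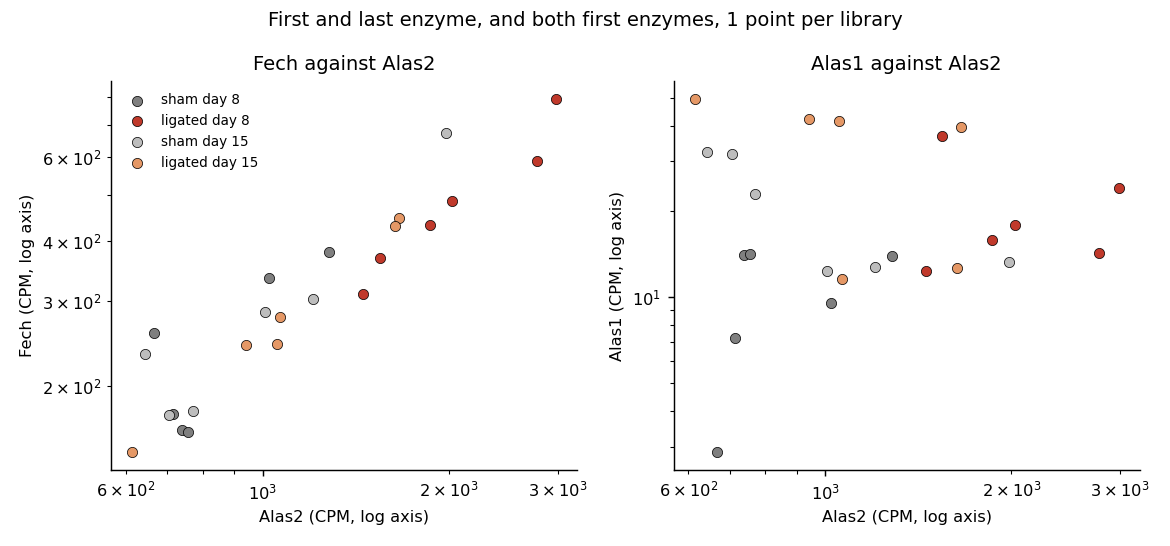
CPM of Fech (left) and of Alas1 (right) against CPM of Alas2, all axes logarithmic, 1 point per library and 1 colour per group. Fech climbs with Alas2 in each of the 4 groups, whereas Alas1 shows no such rise and its highest values sit at low and middle levels of Alas2.

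Red cell genes outside heme synthesis moved in the same comparison. At day 8, 2.77% of all tested genes were called higher. All 4 tested globin genes of 8 were called higher there, with log2 fold changes of 0.83 to 1.08. On library totals without TMM 1 of them was, and the call of Hbb-bs alone was kept in all 12 refits without 1 library (0.92 to 1.17), while Hba-a1, Hba-a2 and Hbb-bt lost theirs in 6, 9 and 9 of them. At day 15 the count was 0 by edgeR and by DESeq2, and 0 at an unadjusted p under 0.05. All 4 were called lower at day 15 than at day 8 in ligated animals, with TMM (2.09% of all tested genes) or without (1.31%). Each lost the call in 7 to 9 of 12 refits without 1 library. Globins held 6.79% ± 0.93 of counts in sham and 10.7% ± 3.30 in ligated day 8 animals. Of 9 tested red cell membrane markers (14 listed) 3 were called at day 8, beside the 2.77% of all tested genes. The count was 6 with animals paired by number (4.11% of all tested genes) and 1 without TMM (1.36%). Among the 3 were Epb42, a protein of the membrane skeleton (1.82, SE 0.46, adjusted p = 0.0267) and Slc4a1, the anion exchanger band 3 (1.48, SE 0.42, adjusted p = 0.0494). The calls of these 2 genes ended in 5 and 10 of 12 refits without 1 library. At day 15 the count was 0 by edgeR and DESeq2, with 2 at an unadjusted p under 0.05. Their summed share was 0.0935% to 0.209% in sham and 0.163% to 0.338% in ligated day 8 animals, and 0.0518% to 0.338% and 0.0973% to 0.251% at day 15. None of the membrane markers was at 0 in a whole group. The 6 tested erythroid transcription factors (8 listed) gave 0 calls at either day by edgeR and DESeq2, with 1 and 2 at an unadjusted p under 0.05, and Gata1 and Klf1 were below the filter. Averaged over days 1 was called, Nfe2, which encodes a subunit of the factor NF-E2 (0.67, SE 0.19, adjusted p = 0.0182), named after its values were seen. It kept its call in 24 of 24 refits without 1 library (0.60 to 0.83) and lost it without TMM (0.46, adjusted p = 0.0924). Alas2 was therefore also set against these transcripts within each library.

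Against globins, Alas2 lay slightly higher in ligated animals, by differences that missed the threshold after correction. There were 80.6 globin counts per Alas2 count at the median of sham day 8 animals (63.2 to 90.0) and 62.2 at that of ligated ones (54.3 to 65.1). Of the 6 ligated animals 3 were above all sham animals in the ratio of Alas2 to globins. The difference of the mean log2 ratios was 0.37 (SE 0.085, exact permutation p = 0.00866, adjusted p = 0.0519), and the p was 0.0625 with animals paired by number. At day 15 the medians were 76.8 in sham (62.3 to 93.4) and 59.7 in ligated animals (57.0 to 80.8), with 4 ligated animals beyond all sham animals and a difference of 0.26 (SE 0.11, exact permutation p = 0.0390, adjusted p = 0.117). Against the summed membrane markers the difference at day 8 was 0.0479 (SE 0.15, exact permutation p = 0.777, adjusted p = 0.777), and it changed sign without sham day 8 animal 3 (-0.0597) and in the deep libraries (-0.13). At day 15 it was -0.39 (SE 0.25, exact permutation p = 0.154, adjusted p = 0.307), and -0.55 (unadjusted p = 0.0238) without sham day 15 animal 3.

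Other genes of heme handling were mostly on the higher side at day 8, with few calls. The list of 27 genes for transport, iron-sulfur supply, breakdown and other steps had 25 in the table and 13 tested, with a median log2 fold change of 0.77 at day 8 and 0.25 at day 15. Positive values were seen in 13 of 13 and 11 of 13 (12 and 7 without TMM). Slc48a1, the transporter that returns heme from lysosomes to the cytosol, was the 1 gene called at day 8 (1.07, SE 0.25, adjusted p = 0.0171). There 2.77% of all tested genes were called higher. With animals paired by number 4 of the list passed, beside 4.11% of all tested genes. The call of Slc48a1 ended without TMM (0.75, adjusted p = 0.0632) and without sham day 8 animal 4 or 5 or ligated day 8 animal 2 (0.90 to 1.20 over 12 refits). It had 59.1 to 102 CPM in sham and 91.0 to 254 in ligated animals, and its value was 0.0703 (SE 0.25) at day 15. Pgrmc1, a membrane protein that binds heme and partners ferrochelatase, was the 1 gene called at day 15 (2.32, SE 0.53, adjusted p = 0.00718), with 4.43 to 26.1 CPM in sham and 36.1 to 231 in ligated animals, groups that do not overlap. At that day 3.48% of all tested genes were called higher. The call of Pgrmc1 ended without ligated day 15 animal 5, its highest value (1.60, adjusted p = 0.0590), and hepatocytes also express this gene. Averaged over days 4 genes were called, Pgrmc1, Slc48a1, Hmox1 (heme oxygenase 1, 1.34, SE 0.37, adjusted p = 0.0190) and Bach1, the heme-sensing repressor of Hmox1 (0.74, SE 0.18, adjusted p = 0.00614). In this comparison 7.1% of all tested genes were called higher. Slc48a1 lost its averaged call in 12 of 24 refits without 1 library (0.49 to 0.64, adjusted p up to 0.0728), and the other 3 lost none. On library totals without TMM 2 of them passed, Pgrmc1 and Hmox1. Hmox1 and Bach1 were named after their values were seen.

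Genes that supply iron gave 2 calls at day 8 among 9 tested of 14, where 2.77% of all tested genes were called higher. They gave 3 by DESeq2 (3.94% of all tested genes) and 3 with animals paired by number (4.11%). At day 15 they gave 0 by edgeR and DESeq2, where 2 had an unadjusted p under 0.05. Their medians were 0.20 and 0.31, and without TMM the day 8 median turned to -0.10. Ncoa4, the receptor that delivers ferritin to lysosomes and so frees iron for heme, was higher at day 8 (1.19, SE 0.25, adjusted p = 0.00855). It ran from 119 to 240 CPM in sham and from 301 to 567 in ligated animals, without overlap, and kept its call without any 1 library (1.07 to 1.31). Ftl1, the ferritin light chain, was higher by a smaller amount (0.53, SE 0.15, adjusted p = 0.0474), with 1628 to 2560 CPM in sham and 2555 to 3431 in ligated animals. Its call ended in 10 of 12 refits without 1 library (0.47 to 0.61) and without TMM (0.23, adjusted p = 0.357). Tfrc, the transferrin receptor, missed the threshold at day 8 (1.58, SE 0.49, adjusted p = 0.0770), passed it with animals paired by number (1.46, SE 0.39, adjusted p = 0.0339) and was called averaged over days (1.21, SE 0.35, adjusted p = 0.0224), and was named after its values were seen.

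**Figure D5:**
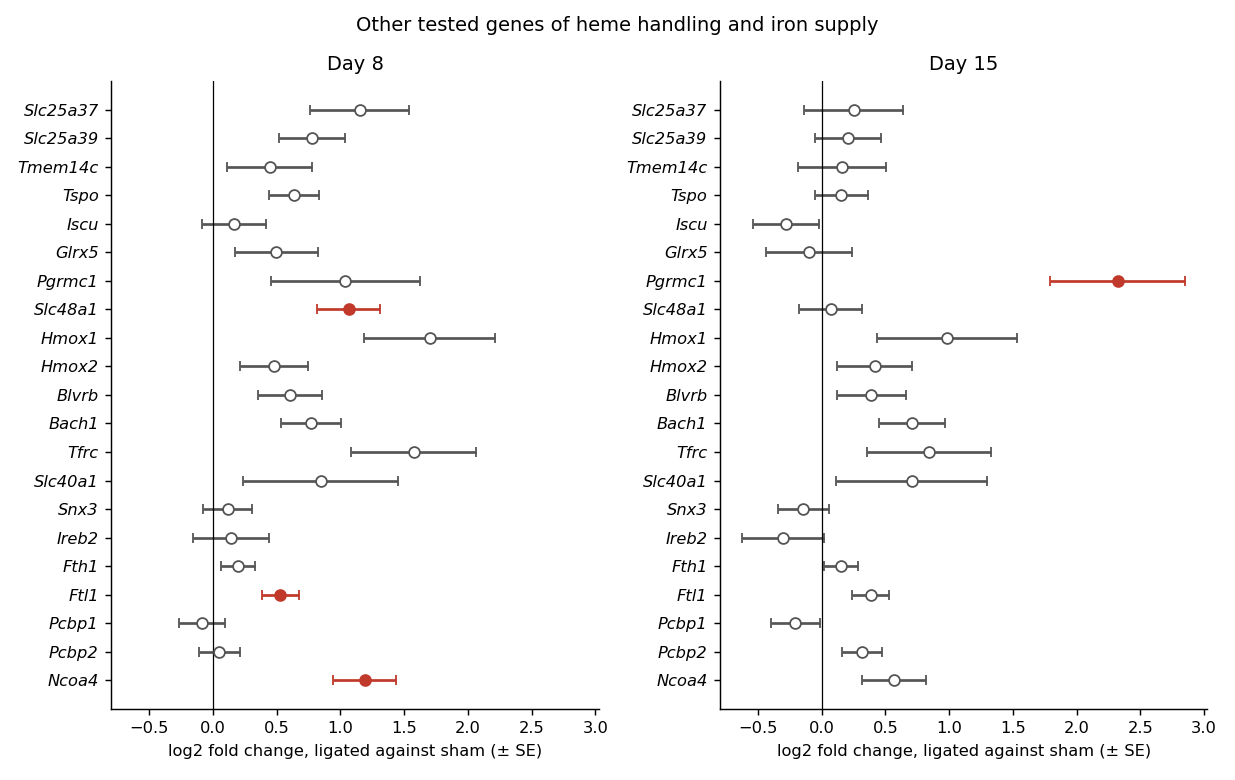
Log2 fold change of ligated against sham animals (x axis, bars ± SE) at day 8 and day 15 for tested genes of heme handling (Slc25a37 to Bach1, all tested genes of the list but 1) and iron supply (Tfrc to Ncoa4). Filled red points pass an adjusted p of 0.05, namely Slc48a1, Ftl1 and Ncoa4 at day 8 and Pgrmc1 at day 15.

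Among the lists of hepatocyte, platelet and neutrophil markers, that of hepatocytes had the most calls for ligation. Hepatocyte markers were called higher in 11 of 14 tested cases at day 8 and 14 of 14 at day 15, beside 2.77% and 3.48% of all tested genes. At day 15 these markers held 0.323% to 2.39% of counts in ligated animals against 0.00973% to 0.0182% in sham animals. Their share was thus largest at day 15. Alas2 did not pass the main test there, and Fech passed it at neither day. Alas1 had its highest mean in ligated day 15 animals (32.9 ± 16.4 CPM, SD, n = 6), although its ligation effect passed at neither day. Between sham groups, where hepatocyte markers held 0.00928% of counts on average at day 8 and 0.0129% at day 15, Alas1 went from 10.3 ± 4.66 to 20.9 ± 9.47 CPM (SD, n = 6 each), a log2 value of 1.01 (SE 0.45, unadjusted p = 0.0324, adjusted p = 0.410, edgeR) that missed the threshold. The part of liver RNA in the levels of Alas1, Alas2 and Fech was not tested, and a missed threshold does not show that it is absent. Of 14 platelet markers 0 were called for ligation at either day by edgeR and DESeq2, with 0 at an unadjusted p under 0.05, and 1 was called at day 8 with animals paired by number. Of 6 tested neutrophil markers Retnlg was called at day 8 (1.54, SE 0.40, adjusted p = 0.0322), and its call ended in 7 of 12 refits without 1 library. All 6 were positive at day 8 (median 1.66, 5 at an unadjusted p under 0.05, edgeR). At day 15 their median was -1.05, with 0 called and 2 at an unadjusted p under 0.05. The median difference of their ligation effect between days was -2.53, with 0 called and 6 at an unadjusted p under 0.05.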

How the data were processed

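The authors deposited expected counts per gene, and every value in the table is an integer. The submitters' processing notes list STAR, RSEM and hg38, although the identifiers are mouse Ensembl genes; tool versions and the step that made the values whole: not given in the sources used here. All 8 enzymes were found by identifier in GENCODE M21 (GRCm38), the source of coordinates. Groups were taken from the sample titles, since the treatment protocol names ligation for every sample. The enzymes and gene lists were chosen with earlier results of these data known.

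Genes were filtered (filterByExpr, minimum count 10, minimum total 15), TMM-scaled, and compared by the quasi-likelihood F-test of edgeR 4.0.16 with a mean for each group and all 24 libraries. P-values were adjusted over 4112 genes (Benjamini-Hochberg, threshold 0.05). Ratios were compared by two-sided exact permutation of 6 against 6 (924 arrangements, smallest p 0.00216). Both procedures were tested on simulated data. Genes outside the set were named if called, up to 3 per list and day by smallest p, and for likeness the top 5; values of some listed genes are not reported here. Alternatives were DESeq2 1.42.0 and its size factors, no filter, only the groups compared, totals without Lars2 and globins, the shallow or the deep libraries of day 8 alone, a block for the animal number, leaving out each library and, chosen after seeing the data, library totals without TMM.

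Deviations of same-numbered animals correlated by 0.165 to 0.327 at day 8 (6 of 6 over 0.1) and by -0.031 to 0.113 at day 15 (1 of 6). At day 8, 3 of 6 ligated animals were most like the sham animal of their own number, and 1 was at day 15. Each best match of day 8 lay within the same depth set, numbers 1 to 3 or 4 to 6. Whether the correlation reflects pairs or depth was not tested. Fits paired by number, at both days, rest on the data alone and are given only as an alternative. Per the labels, neither poly(A) selection nor ribosomal RNA removal was done, and PCR copies carry no molecular identifiers, so intervals cover counting error only. The treatment of strand and of reads shared by similar genes: not given in the sources used here. Replicate libraries differed beyond sampling noise (chi-square of at least 1.77 per degree of freedom).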

Additional observations from a re-analysis of the deposited data

Results flagged for a closer look

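Among 32 groups of 6 values (8 enzymes in 4 groups), 3 held an animal far above the others by Dixon's test at the 95% level; chance alone flags about 1 in 20 groups. Fech in sham day 15 animal 2 stood at 672.61 CPM, where the next animal had 303 and the gap took 0.74 of the range. The same animal had the highest Alas2 of its group (1982 CPM), and it moves the day 15 comparison of Fech. Uros in ligated day 8 animal 3 stood at 21.12 CPM, from 4 counts, and the next animal had 7.18. Uros in sham day 15 animal 3 stood at 43.24 CPM, from 7 counts, and the next had 8.85.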

How the results depend on the processing

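At day 8 the number of enzymes called was 1, and 2 with the replicate block or without the low-count filter, 0 in libraries numbered 4 to 6, and 1 to 2 leaving out 1 library. For day 15 against day 8 in ligated animals it was 0, and 2 without the filter (0 to 1 leaving out 1 library). Averaged over days it was 1, and 0 on library totals without TMM (1 to 2 leaving out 1 library). Genes called at day 8 numbered 129, and 298 without the filter, 84 with only the groups compared, 202 with the replicate block, 46 and 6 in libraries numbered 1 to 3 and 4 to 6, and 58 to 159 leaving out 1 library (82, 85, 58 and 59 without sham animals 2 to 5, and 75 without ligated animal 2). At day 15 they numbered 187, and 688 without the filter, 287 without TMM, and 117 to 260 leaving out 1 library (117 without ligated animal 5). Averaged over days they numbered 436, and 1041 without the filter and 806 without TMM. The difference between days gave 0, and 1 with DESeq2, 51 without the filter, 1 with the replicate block, 1 without TMM, and 0 to 2 leaving out 1 library. Day 15 against day 8 gave 179 in ligated animals, and 652 without the filter and 36 to 359 leaving out 1 library (359 without ligated day 8 animal 3; 64, 57 and 90 without ligated day 8 animals 4, 5 and 6; 67, 94, 110 and 36 without ligated day 15 animals 1, 2, 4 and 5). In sham animals it gave 0, and 5 with DESeq2, 150 without the filter, and 0 to 1 leaving out 1 library.

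Signs turned for values near 0. With the replicate block Fech at day 15 was 0.035 and the difference between days of Urod -0.0059; without TMM Alas2 at day 15 was -0.027; in libraries numbered 4 to 6 Urod at day 8 was -0.10. Leaving out 1 library, Fech at day 15 ran from -0.19 to 0.35 (0.10, 0.02 and 0.02 without ligated animals 1, 2 and 5), the difference between days of Urod -0.17 to 0.26, and sham animals at day 15 against day 8 from -0.00247 to 0.43 for Alas2 and from -0.0636 to 0.53 for Fech. The ratio of Alas2 to globins kept its sign with every alternative. At day 8 its unadjusted p missed 0.05 with the replicate block (log2 difference 0.37). In libraries numbered 1 to 3 (log2 difference 0.36) or 4 to 6 (log2 difference 0.38) it could not pass, because 3 against 3 gives 20 arrangements and a smallest p of 0.1. At day 15 it missed with the block (log2 difference 0.26) and in 9 of 12 refits without 1 library (log2 differences of 0.20 to 0.34 over all 12). The ratio to membrane markers at day 8 was -0.0597 to 0.12 leaving out 1 library and -0.13 in libraries numbered 4 to 6, and at day 15 -0.55 to -0.21. The ratio to Alas1 was 0.20 to 0.59 at day 8 leaving out 1 library, and at day 15 -0.63 to 0.0197. Causes of these shifts were not tested. Depth limits Alas1 and the 4 untested enzymes most, with 1 to 23 Alas1 counts per library. The block changed no call of an enzyme other than that of Fech at day 8.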
